A study of Rattus norvegicus with 6 samples.

Results

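Integrin and laminin subunits were followed in rat heart muscle 6 h after coronary ligation. The members are the genes whose symbol is Itga or Itgb with a number or 1 letter (integrin alpha and beta subunits), or Lama, Lamb or Lamc with a digit (laminin alpha, beta and gamma chains). Each probe took its gene symbol from the RefSeq table of GRCr8 that lists its accession. Of 37 protein-coding genes of that table that meet the rule, 19 had a matched probe on the array, each with 1 probe: 9 integrin alpha subunits, 5 integrin beta subunits and 5 laminin chains. The others, among them Itgav, Itga6, Itgax, Lama2, Lama4 and Lamc1, were not analysed here. Itgb1bp1, Itgb1bp2, Itgb3bp and Itgbl1 begin with the same letters but are not integrin subunits and are not members.

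The labels list 6 samples from male Wistar rats. In 3 of them the left anterior descending coronary artery had been ligated, and the border zone of the infarct, located by a double stain with TTC and EB, was taken after 6 h (arrays M17, M24 and M25). The other 3 had a sham operation, and myocardium called control zone was taken at the same time (arrays C4, C5 and C6). Total RNA was labelled with Cy3 and hybridised to 1-colour Agilent arrays, 1 array per sample. The labels give no age and do not say how much of each sample was surviving muscle. In such whole-tissue samples, a higher level from more cells of a type cannot be told apart from more RNA per cell.

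Integrins are cell surface receptors made of 1 alpha and 1 beta subunit. They link the extracellular matrix or a ligand on another cell to the actin cytoskeleton through adaptors such as talin and kindlin. The beta subunit Itgb2 is found on leukocytes, where it pairs with Itgal, Itgam, Itgax or Itgad and mediates firm adhesion to the vessel wall. The subunit Itgb1 is found on most cells and pairs with many alpha subunits, giving receptors for fibronectin (with Itga5), collagen (with Itga1 or Itga10) and laminin (with Itga3, Itga6 or Itga7). Laminins are trimers of an alpha, a beta and a gamma chain, and they form the basement membrane that surrounds each cardiomyocyte and each vessel.

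Levels are given as normalized log2 signal, the log2 of the background-subtracted signal minus the 75th percentile of its array, so that 0 is the level of a probe at that percentile and 1 unit is a factor of 2. A level compares arrays for 1 probe, not different probes. Fold changes are border zone minus sham on this log2 scale, with the standard error of a limma fit over 17930 probes and n = 3 arrays per group. A probe passed when its Benjamini-Hochberg adjusted p was below 0.05. Probes entered the test if all 3 arrays of either group were called well above background by the scanner software.

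Of the 19 members, 15 were tested: 7 alpha subunits, all 5 beta subunits and 3 laminin chains. Well above background on all arrays were 12 of them. Of these, the beta subunit of leukocyte integrins Itgb2, the fibronectin receptor subunit Itga5 and its partner Itgb1 rose, 3 of 12 (25%), while 10.6% of all probes above background on all arrays rose. The other 3 tested members, Itgam, Itgad and Lamb1, entered through the border zone alone. Such entry favours probes that are higher there but does not force it. Lamb1 was higher on C4 (-4.56, well above background) than on any border-zone array. Itgad and Lamb1 also read higher on C6 (-5.10 and -3.92), but neither was well above background there, so those readings give no order. Of all 15 tested members, 4 (26.7%) passed as higher, the fourth being Itgam, beside 9.01% of all probes tested. In limma, 0 members fell, against 10.3% of all probes (19.3% passed in either direction), and 2 members (Itgb4 and Itgb5) were lower at an unadjusted p below 0.05. The median log2 fold change of the members tested was 0.051, beside -0.047 over all 11001 genes tested.

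The 3 border-zone arrays and sham C4 were scanned together, and C5 and C6 in a scan each. The share of probes well above background was between 73.7% and 78.3% on the arrays of the shared scan, 51.0% on C5 and 52.4% on C6. The lowest signal called well above background lay between -7.41 and -6.98 on the shared scan but at -4.49 on C5 and -3.98 on C6, so levels under these have no order there. Of 23 measured markers of central nervous tissue, 18 exceeded background clearly on C5 as well as C6, and all 18 had their highest 2 levels there. The summed level of the 23 (in linear units of the 75th percentile) was 19.5 and 23.2 there, 5.92 on C4 and between 3.51 and 3.85 in the border zone. The M25 signal fell between those of M17 and M24 for 97.6% of the 572 probes that differ over 2-fold between these 2 arrays, and for 13 of the 15 members, against 70.5% of all probes tested. Whether M25 is an independent sample is not settled by the labels or by these values. The p-values here assume that it is, and results are also given without it. Fitting scan as a block leaves C4 as the only sham array. It has no sham spread, its residual degrees of freedom come from the border-zone arrays, and its values are called "against C4". Against C4, Itgb2 and Itgam passed as higher, 2 of the 15, beside 8.43% of all probes, and 0 passed as lower, beside 7.5% (15.9% of all probes passed in either direction). At an unadjusted p below 0.05, 8 members differed from C4 in this limma fit, beside 36.9% of all probes.

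**Figure D1:**
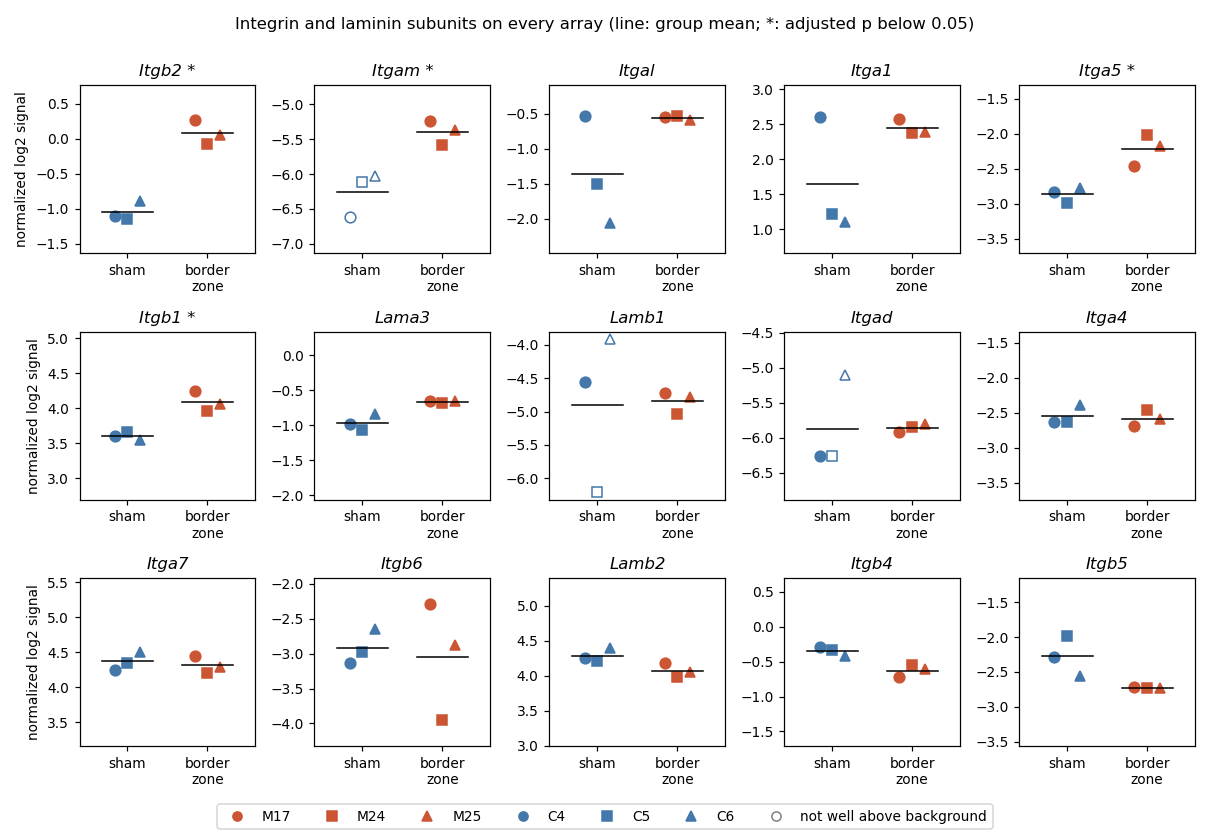
Normalized log2 signal (vertical axes, each spanning its own range) of the 15 tested members on the 3 sham (blue) and 3 border-zone (red) arrays, ordered by fold change, with group means as lines and open symbols where the probe was not well above background. The groups lie apart for Itgb2, Itga5, Itgb1 and Itgam, the last with sham at background. They also lie apart for Lama3 (higher) and for Itgb4, Itgb5 and Lamb2 (lower), which did not pass. Sham C4 sits beside the border zone, away from C5 and C6, for Itgal and Itga1.

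Promoter sequences are shown for the members that passed and have an entry in the RefSeq promoter table of GRCr8, because they were called in 1 comparison: Itgam, Itga5 and Itgb1. Each runs 5′ to 3′ on the gene's strand, from 250 bases before to 50 bases after the start. Capitals mark 2 motifs on either strand, which do not overlap in these windows: GAGGAA (or TTCCTC), the core bound by the myeloid ETS factor PU.1, and GGGCGG (or CCGCCC), the GC box bound by Sp1.
Itgam, chr1:192089342-192089641, plus strand: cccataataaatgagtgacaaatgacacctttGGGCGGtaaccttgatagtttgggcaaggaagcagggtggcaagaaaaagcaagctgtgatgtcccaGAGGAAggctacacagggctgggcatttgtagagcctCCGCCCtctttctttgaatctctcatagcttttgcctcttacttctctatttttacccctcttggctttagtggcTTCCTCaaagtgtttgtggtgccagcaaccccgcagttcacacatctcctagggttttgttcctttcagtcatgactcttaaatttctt
Itga5, chr7:136381256-136381555, minus strand: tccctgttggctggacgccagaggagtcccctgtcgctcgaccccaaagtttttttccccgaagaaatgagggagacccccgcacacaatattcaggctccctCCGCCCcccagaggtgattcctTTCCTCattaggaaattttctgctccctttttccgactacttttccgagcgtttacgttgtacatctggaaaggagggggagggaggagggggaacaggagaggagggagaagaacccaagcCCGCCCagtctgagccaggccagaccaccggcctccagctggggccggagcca
Itgb1, chr19:73602027-73602326, plus strand: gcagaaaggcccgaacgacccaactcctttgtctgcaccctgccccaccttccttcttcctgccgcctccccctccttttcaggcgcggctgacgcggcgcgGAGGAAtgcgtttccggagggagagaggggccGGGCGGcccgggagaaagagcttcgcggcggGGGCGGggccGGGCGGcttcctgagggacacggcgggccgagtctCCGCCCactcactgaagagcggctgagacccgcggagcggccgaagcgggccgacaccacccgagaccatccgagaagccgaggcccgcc

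The Itgam window holds GAGGAA 2 times and GGGCGG 2 times, and its GC content is 46.3%. In the Itga5 window GAGGAA occurs 1 time and GGGCGG 2 times, at 58.7% GC. Itgb1 has 1 and 4 of them in a GC-rich window of 71.7%. Over all 33469 promoters of the table, 27.6% hold GAGGAA and 33.1% hold GGGCGG on either strand. Of the 13 members with an entry, 6 hold GAGGAA, the others being Itgb6, Lama3 and Lamb1, and 6 hold GGGCGG, the others being Itga3, Lamb1 and Lamc3. These matches are descriptions of letters, and no binding was measured.

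Among the leukocyte integrins, Itgb2 showed the clearest rise of the members. Its normalized log2 signal was 0.28, -0.077 and 0.060 on M17, M24 and M25 and -1.11, -1.14 and -0.88 on C4, C5 and C6. Every border-zone array thus lay above every sham array, with all 6 well above background. The rise was 2.19-fold (log2 fold change 1.13 ± 0.14, limma adjusted p = 0.00697) and 1.19 against C4 (adjusted p = 0.0299). It passed in 13 of 15 other settings, with log2 fold changes from 0.98 to 1.32. The call ended without M25, at an adjusted p of 0.0571 and a log2 fold change of 1.14, and against C4 without M25 (adjusted p = 0.136).

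Itgam, which pairs with Itgb2 to form a receptor for complement fragments and fibrinogen on neutrophils and monocytes, was a dim probe. It stood at -5.24, -5.58 and -5.36 on the border-zone arrays, all well above background. The sham arrays read -6.62, -6.11 and -6.03 on C4, C5 and C6, none of them well above background. The fit gave a log2 difference of 0.86 ± 0.20 (adjusted p = 0.0344), which is a difference from background and not a measured change, since the detection limits of C5 and C6 lie above the border-zone level. Against C4 alone, whose limit is lower, the border zone read 2.33-fold higher (log2 fold change 1.22). The C4 reading was not well above background either, so this is an estimate from 1 background-level reading and not a bound. With normexp background correction the pooled sign turned (-0.53, adjusted p = 0.19), and the call also ended with quantile normalization, without a filter, and without M17 (adjusted p = 0.118), M24 (0.0819), M25 (0.145) or C5 (0.0781).

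The other 2 alpha partners of Itgb2 with a probe, Itgal and Itgad, did not pass. Itgal, the alpha subunit of the ICAM receptor of lymphocytes and other leukocytes, read -0.54, -0.53 and -0.60 in the border zone, -0.54 on C4, -1.51 on C5 and -2.06 on C6. The level on C4 was thus within the border-zone values, and only C5 and C6 were lower. Its log2 fold change was 0.81 ± 0.38 (adjusted p = 0.181), -0.018 against C4 and 1.23 without C4, where it passed (adjusted p = 0.00753). Itgad, a less widely expressed alpha subunit of macrophages, was between -5.91 and -5.80 in the border zone and at -6.27 on C4, and C5 and C6 were not above background (log2 fold change 0.024 ± 0.33, 0.41 against C4, adjusted p = 0.967 and 0.0701). Itga4, which pairs with Itgb1 or Itgb7 on lymphocytes and monocytes and binds Vcam1, lay between -2.69 and -2.40 on all 6 arrays, with overlapping groups (log2 fold change -0.033 ± 0.13, adjusted p = 0.871). Its sign turned with median scaling (0.16) and quantile normalization (0.12).

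Markers of myeloid cells were read beside Itgb2 and Itgam. Of 12 measured neutrophil markers, 3 were above background on all arrays, and of these S100a8 (log2 fold change 5.21) and Lcn2 (2.93) rose. Another 6 passed but entered the test through the border zone alone, and of these Mmp8 and Pglyrp1 were not well above background on any sham array. Ngp (0.052, limma adjusted p = 0.933) and Fcgr3a (0.36, adjusted p = 0.354) were tested and did not pass. Prtn3, well above background on no array, and Ltf, on no sham array, were not tested. The summed level of all 12 was 6.23 to 7.11 on the border-zone arrays and 0.583 to 0.861 on the sham arrays. Leaving out S100a8, the brightest, it was 1.97 to 3.33 and 0.53 to 0.66. Of 13 measured monocyte and macrophage markers, 12 were tested, 5 passed as higher (Cd14, Lyz2, Mrc1, C1qb and C1qc) and 3 as lower (Adgre1, Cx3cr1 and Trem2). Cx3cr1 was well above background on 1 sham array, and its levels on C5 and C6 lay under the detection limits there. Its log2 fold change was -1.34, and -0.90 against C4. Summed, the 13 markers reached 84.7 to 88.7 in the border zone and 45.3 to 53.0 in sham, most of the gap coming from Lyz2. Without it the sums were 34.5 to 41.6 and 32.9 to 34.5. For lymphocyte markers, 13 measured, the summed levels overlapped, at 2.97 to 4.07 and 2.98 to 3.24. Of the 10 tested, Klrd1 passed as higher (log2 fold change 0.54, limma adjusted p = 0.0437) and 9 did not pass. The part of these cells in the levels of Itgb2 and Itgam was not tested.

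The fibronectin receptor subunits Itga5 and Itgb1 both rose, by less than Itgb2. Itga5 read -2.46, -2.02 and -2.17 on M17, M24 and M25 and -2.83, -2.99 and -2.77 on C4, C5 and C6. The groups did not overlap, and the sham arrays spanned less than the border-zone arrays. The rise was 1.57-fold (log2 fold change 0.65 ± 0.15, adjusted p = 0.0364), at 0.62 against C4 (adjusted p = 0.118). With normexp it was 0.15 (adjusted p = 0.548), and the call ended without a filter (adjusted p = 0.0764) and without M17 (0.0511), M24 (0.123), M25 (0.165), C5 (0.108) or C6 (0.0612).

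Itgb1 is the shared beta subunit of the fibronectin, collagen and laminin receptors named above. The border-zone arrays were at 4.25, 3.96 and 4.06, and the sham arrays at 3.60, 3.67 and 3.54. This is the narrowest sham range among the members that rose. It was 1.40-fold higher in the border zone (log2 fold change 0.49 ± 0.12, adjusted p = 0.0427) and 0.49 against C4 (adjusted p = 0.104). The call ended with quantile normalization (0.31, adjusted p = 0.121), in the deposited table (adjusted p = 0.117), without a filter (0.0896), and without M17 (0.131), M24 (0.0908), M25 (0.179), C5 (0.0959) or C6 (0.0886).

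**Figure D2:**
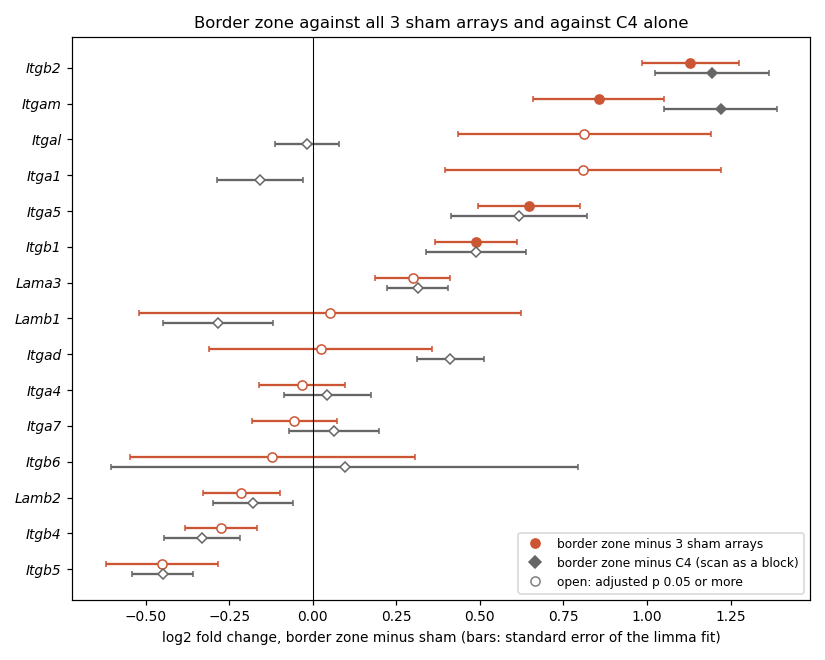
Log2 fold change of the 15 tested members (horizontal axis, border zone minus sham) against all 3 sham arrays (circles) and against C4 alone (diamonds), with the standard error of each limma fit as bars and filled symbols where the adjusted p is below 0.05. Itgb2 (1.13 and 1.19) is past the threshold in both, Itgam is too but reads background in sham, Itga5 and Itgb1 keep their size against C4 without passing, and Itgal and Itga1 drop from 0.81 each to -0.018 and -0.16.

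The collagen receptor subunit Itga1, found on fibroblasts, smooth muscle and capillary endothelium, split the arrays by scan. Its level was 2.58, 2.38 and 2.39 in the border zone, 2.61 on sham C4, and 1.21 and 1.11 on C5 and C6. C4 was the highest of all 6 arrays. The log2 fold change of 0.81 ± 0.41 did not pass (adjusted p = 0.215), was -0.16 against C4, and passed at 1.29 without C4 (adjusted p = 0.00168). For Itga1 and Itgal, C4 exceeded the mean of C5 and C6 by 1.45 and 1.245 on the log2 scale. Of the smooth muscle and pericyte markers, Des, which cardiomyocytes also express, followed the same split, with linear levels of 65.9 on C4, 67.2 to 75.2 in the border zone, 38.1 on C5 and 34.0 on C6. The sum of the other 10 did not, at 33.8, 34.5 and 36.6 on C4, C5 and C6 and 22.2 to 25.6 in the border zone. Within these, Cspg4 (log2 1.22 and 1.05) and Kcnj8 (-2.23 and -2.39) were lower on C5 and C6 than on every array of the shared scan. The rest of that list were not. Among fibroblast and endothelial markers, looked at after seeing values, Dcn (4.74 and 4.55), Gsn (5.17 and 5.51) and Erg (0.19 and -0.20) were also lower on C5 and C6. Flt1 read lower there too, but under the detection limits. The other fibroblast and endothelial markers did not follow the split. Scan and the nervous tissue transcripts move with the split, and their parts were not tested. Itga10, the collagen receptor subunit best known from cartilage, was above background on M24 and C4 only and was not tested.

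Of the laminin receptor alpha subunits, Itga7, the main one of striated muscle, did not pass. It stood at 4.44, 4.20 and 4.29 in the border zone and 4.25, 4.34 and 4.51 in sham, so the groups overlapped. The log2 fold change was -0.055 ± 0.13 (adjusted p = 0.781), and its sign turned with median scaling (0.13) and normexp (0.053). Itga3, a laminin receptor subunit of epithelia, was above background on M17 and M25 only and was not tested. The 15 measured cardiomyocyte markers, each well above background in both groups, summed to 1055 to 1114 in the border zone and 1064 to 1328 in sham.

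Of the other beta subunits, Itgb4 and Itgb5 were lower in the border zone without passing. Itgb5, which pairs with Itgav as a vitronectin receptor, was at -2.72, -2.73 and -2.73 in the border zone and -2.28, -1.99 and -2.56 in sham. The groups did not overlap, and the log2 fold change was -0.45 ± 0.17 (adjusted p = 0.111, unadjusted p = 0.0357), -0.45 against C4 (adjusted p = 0.0502). Itgb4, the laminin receptor beta subunit of epithelia and Schwann cells, read -0.72, -0.56 and -0.61 against -0.30, -0.34 and -0.43, again without overlap (log2 fold change -0.27 ± 0.11, adjusted p = 0.13). Both were lower under each of the 15 alternatives, from -0.34 to -0.085 for Itgb4 and from -0.60 to -0.26 for Itgb5. Itgb6, an epithelial subunit known for activating TGF-beta, varied most within the border zone, at -2.29, -3.96 and -2.88 on M17, M24 and M25, while sham was -3.14, -2.98 and -2.65. Its difference was far inside that spread (log2 fold change -0.12 ± 0.43, adjusted p = 0.857), with the sign turned by median scaling (0.069) and quantile normalization (0.049).

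No laminin chain passed in limma. Lama3, the alpha chain of epithelial laminin, was -0.65, -0.69 and -0.66 in the border zone and -0.98, -1.07 and -0.84 in sham. Every border-zone array was higher, by a log2 fold change of 0.30 ± 0.11 (adjusted p = 0.113, unadjusted p = 0.037), and 0.31 against C4. Lamb2, a beta chain of muscle and vessel basement membranes, was 4.18, 3.99 and 4.05 against 4.25, 4.21 and 4.40, with every border-zone array lower (log2 fold change -0.21 ± 0.12, adjusted p = 0.238, -0.0245 with median scaling). Lamb1, a more widely used beta chain, lay between -5.04 and -4.72 in the border zone and at -4.56 on C4, and was not above background on C5 or C6 (log2 fold change 0.051 ± 0.57, -0.28 against C4, adjusted p = 0.956). Lama1, an alpha chain of embryonic basement membranes, and the gamma chain Lamc3 were not well above background on any array.

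In all, the groups did not overlap for 7 of the 12 members above background on all arrays (58.3%), 4 higher and 3 lower, beside 53.8% of all such probes. Over the 15 tested, Itgam included, it was 8 (53.3%), beside 43.7% of all probes. An unadjusted p below 0.05 was reached by 7, the 4 that passed with Lama3, Itgb4 and Itgb5, beside 36.4% of all probes. With 1 array left out, the number of members that passed as higher was 1 (M17 left out), 1 (M24), 0 (M25), 6 (C4), 1 (C5) and 2 (C6). The shares of all probes that rose in those fits were 3.42%, 2.99%, 1.59%, 20.7%, 3.69% and 6.57%. Itgb2 was the 1 member left without M17, M24 or C5. With M25 left out, 4 members had an unadjusted p below 0.05 in limma, beside 23.4% of all probes.

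**Figure D3:**
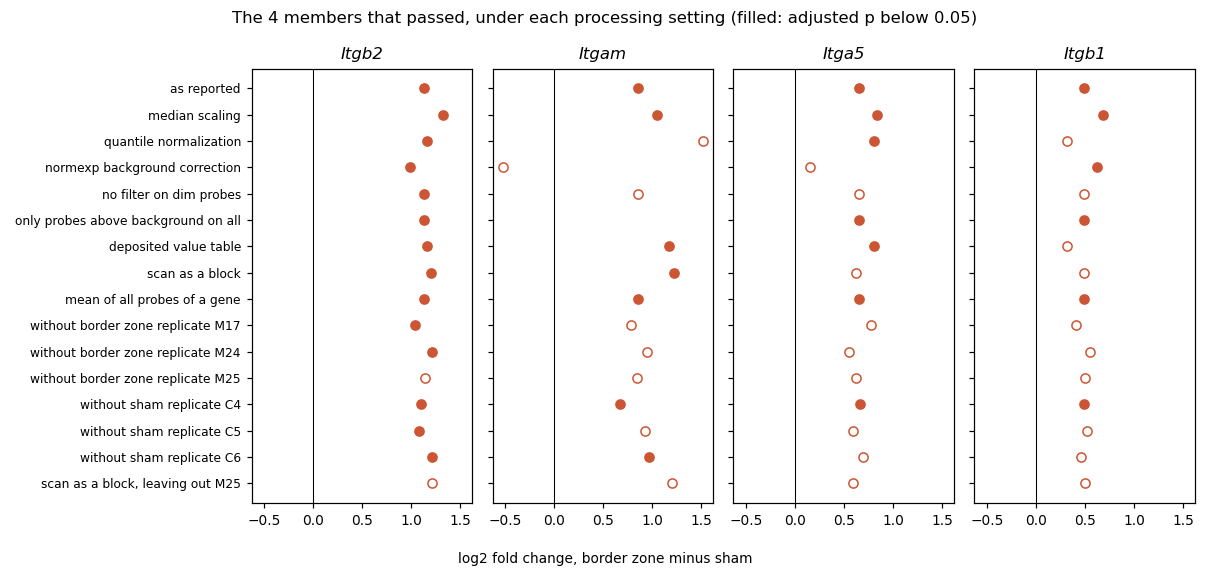
Log2 fold change (horizontal axis, border zone minus sham) of Itgb2, Itgam, Itga5 and Itgb1 as reported and under each other processing setting (vertical axis), filled where the limma adjusted p is below 0.05. Itgb2 stays between 0.98 and 1.32, while Itgam runs from -0.53 with normexp to 1.52 with quantile normalization.

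The partners of these subunits were described from 4 lists. Beside their counts stand the shares of all probes tested, 9.01% higher and 10.3% lower. Among probes above background on all arrays, 10.6% rose. Among ligands and triggers of leukocyte integrins, of 14 tested genes 4 passed as higher and 10 did not pass, with a median log2 fold change of 0.52. Of the 10 above background on all arrays, 2 rose, Icam1 and Fermt3. Icam1, the endothelial ligand of Itgb2 integrins, rose from -1.75, -1.86 and -1.90 in sham to -0.59, 0.76 and 0.26 on M17, M24 and M25 (log2 fold change 1.98 ± 0.34, adjusted p = 0.0157, 1.89 and 0.0993 against C4). Fermt3, the kindlin that activates integrins in blood cells, was 0.30, 0.073 and 0.18 against -0.62, -0.31 and -0.54 (log2 fold change 0.67 ± 0.13, adjusted p = 0.0232). The endothelial selectin Sele, which slows leukocytes before integrins hold them, passed too (2.87 ± 0.27, adjusted p = 0.0032), with 2 of 3 sham arrays above background. For Vcam1, the ligand of Itga4, the log2 fold change of 2.07 did not pass (adjusted p = 0.0894).

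Of 35 tested adaptors and focal adhesion genes, 5 passed as higher, 2 fell and 28 did not pass, with a median log2 fold change of 0.020. Above background on all arrays were 30, of which 4 rose and 2 fell. The largest fold changes were in the Z-disc adaptor Pdlim5 (2.23 ± 0.16, adjusted p = 0.00157), the leukocyte parvin Parvg (1.51 ± 0.32, adjusted p = 0.0287, 0.088 with normexp and 1 sham array above background), the Src substrate scaffold Bcar1 (1.36 ± 0.16, adjusted p = 0.00558) and Lpp (0.86 ± 0.12, adjusted p = 0.00902, 0.068 with normexp). Tns2, a focal adhesion tensin, rose as well (0.73 ± 0.13, adjusted p = 0.016). Cd81, a tetraspanin that binds integrins (-0.75 ± 0.11, adjusted p = 0.0109), and Rsu1, a partner of the Ilk complex (-0.56 ± 0.14, adjusted p = 0.0452, but 0.169 against C4), fell. Tns2, Cd81 and Rsu1 were chosen after their values were seen. The core adaptors Tln1 (-0.28), Ilk (-0.068), Parva (-0.037) and Fermt2 (-0.077), also picked after seeing values, did not pass, and the last 3 turned sign with median scaling (0.12, 0.15 and 0.11). Melusin (Itgb1bp2), the muscle protein that binds the tail of Itgb1, had a log2 fold change of 0.054 ± 0.19 (-0.82 with normexp). Its probe was dim, with 1 sham array above background and C5 and C6 under their detection limits, so no change can be read from it. For Itgb1bp1 the log2 fold change was 0.035 ± 0.13.

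Of 18 tested matrix ligands of integrins, 3 rose, 3 fell and 12 did not pass, with a median of 0.12. The rises were Ccn2 (2.27 ± 0.32, adjusted p = 0.00953), Ccn1 (2.003 ± 0.27, adjusted p = 0.00773) and fibronectin, Fn1, the ligand of the receptor formed by Itga5 and Itgb1. Fn1, chosen after its values were seen, was 3.48, 3.33 and 3.37 in the border zone and 2.48, 2.50 and 2.64 in sham (log2 fold change 0.85 ± 0.11, adjusted p = 0.00735, 0.91 and 0.0235 against C4). The fibrillar collagens Col3a1 (-1.84 ± 0.31, adjusted p = 0.0145) and Col1a2 (-1.02 ± 0.21, adjusted p = 0.0254, chosen after its values were seen) and the microfibril protein Fbn1 (-1.46 ± 0.12, adjusted p = 0.00228) fell. Against C4, Ccn2 (adjusted p = 0.0507), Ccn1 (0.0633), Col3a1 (0.0649) and Col1a2 (0.0552) did not pass. Osteopontin, Spp1, a ligand of several integrins, had a log2 fold change of 3.08 ± 0.83 that did not pass (adjusted p = 0.0524) and 4.58 against C4, which did (adjusted p = 0.044). Like Vcam1, it was named after its values were seen.

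Of 20 tested laminin receptors and basement membrane partners, 2 passed as higher, 3 fell and 15 did not pass, with a median of -0.066. Above background on all arrays were 17, of which 1 rose and 3 fell. Ntn4, a secreted protein that binds laminin gamma chains, passed as higher (2.13 ± 0.25, adjusted p = 0.0056, with 2 of 3 sham arrays above background). The proteoglycan Agrn, which links laminin to dystroglycan, fell from 3.65, 3.55 and 3.53 in sham to 2.70, 2.71 and 2.67 in the border zone (-0.88 ± 0.10, adjusted p = 0.0052). Nid2, which bridges laminin and type IV collagen, fell (-0.82 ± 0.17, adjusted p = 0.0246), as did the sarcospan gene Sspn of the dystrophin complex (-0.59 ± 0.14, adjusted p = 0.0351, but 0.116 against C4). Rpsa, a ribosomal protein also called the laminin receptor, rose (0.57 ± 0.14, adjusted p = 0.0425, but 0.144 against C4, chosen after its values were seen).

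**Figure D4:**
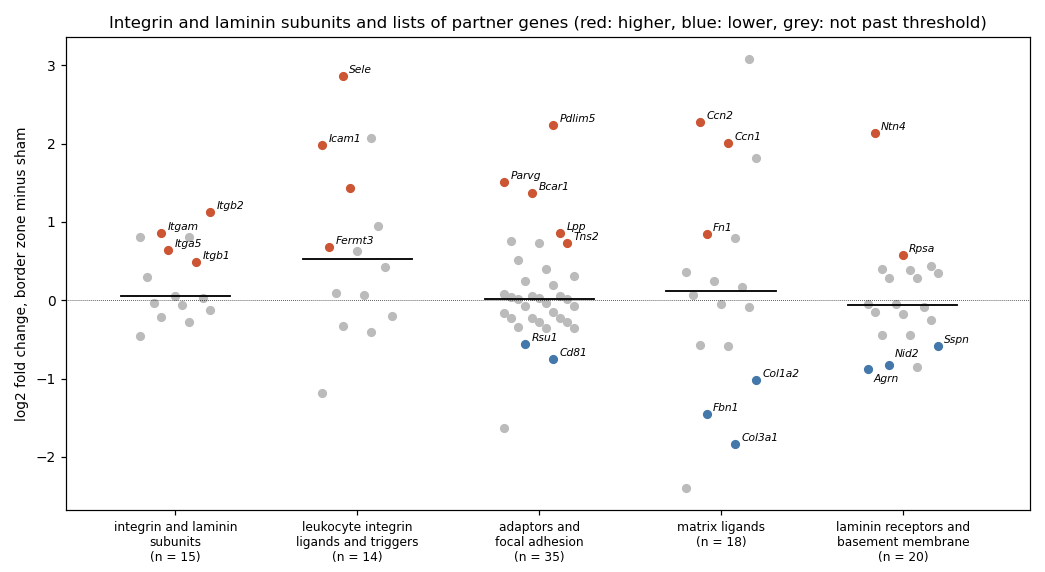
Log2 fold change (vertical axis, border zone minus sham) of the 15 tested subunits and of the tested genes of 4 partner lists, 1 point per gene, red where higher and blue where lower at a limma adjusted p below 0.05, grey otherwise, with medians as lines. The 4 subunits that passed lie between 0.49 and 1.13, below the called partners Sele, Ccn2, Pdlim5, Ntn4 and Ccn1, which lie above 2.

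Other cell types that carry these subunits were followed by their markers. Their counts, too, stand beside 9.01% of all probes tested that rose and 10.3% that fell. Endothelial markers, 10 measured, summed to 43.1 to 46.3 in the border zone and 46.8 to 51.3 in sham, with 1 rise and 3 falls. The rise, Flt1, entered the test through the border zone alone. Of the 8 above background on all arrays, 0 rose and 3 fell. Leaving out Esam, the brightest, the sums were 26.5 to 27.9 in the border zone and 34.3 to 34.6 in sham. Fibroblast markers, 11 measured, summed to 127.6 to 145.3 and 145.2 to 180.1, with 2 rises and 3 falls, Col1a2 and Col3a1 being among its genes as well as among the matrix ligands. Leaving out Gsn, the brightest, the sums were 74.5 to 84.8 in the border zone and 105.3 to 132.0 in sham. Platelet markers, 6 measured, overlapped at 1.83 to 2.39 and 1.84 to 2.02, with Gp1ba above background on no array. Of the 4 tested, Pf4 passed as higher (0.82 ± 0.15, limma adjusted p = 0.0187) and 3 did not pass. Leaving out Pf4, the sums were 0.72 to 1.21 in the border zone and 1.06 to 1.46 in sham. Epithelial and mesothelial markers, 8 measured, summed to 3.79 to 4.60 and 2.04 to 3.04, with a median log2 fold change of 0.71 over the 6 tested and 3 passing as higher, 2 of them through the border zone alone. Peripheral nerve and Schwann cell markers, 12 measured, summed to 5.32 to 7.12 in the border zone and 8.17 to 9.48 in sham, with 2 rises and 2 falls. Leaving out Pmp22, the brightest, which did not pass, the sums overlapped at 1.77 to 1.97 and 1.90 to 2.42. Scn10a, 1 of the falls, was well above background on 1 sham array. Its levels on C5 and C6 lay under the detection limits there.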

How the data were processed

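The deposited spot intensity was extracted with Agilent Feature Extraction 11.0.1.1, which per the file headers subtracted background and removed spatial trends without normalizing between arrays. A second file deposited by the authors holds log2 values whose columns have nearly equal quantiles; how it was made is not given in the sources used here, and it served as an alternative (24415 of its 24529 probes matched). Here, control and outlier spots were left out, log2 signals were averaged per probe, and the 75th percentile of each array was subtracted. Of 24684 probes, 24614 had a usable spot on every array and 14265 a gene symbol. Groups were compared with limma 3.58.1 in R 4.3.3 (lmFit, eBayes, two-sided, tested on simulated data), adjusted over 17930 probes. A gene is its tested probe with the highest mean. Tables and figures used Python 3.11.15, pandas 2.3.3 and matplotlib 3.10.9. The labels do not say more about how separate the samples are, so p-values measure the spread between these arrays, whose number limits precision. The array design names rn4, and promoter coordinates are of GRCr8. The planned normexp used median spot signals, because the files have no mean signal. Members, lists and tests were chosen with earlier results of these data known. All members are named; of each partner list up to 4 passing genes by absolute fold change are, and others are marked; some list genes are counted but not reported here. Alternatives covered scaling, background, filter, gene summary, the deposited table, scan and left-out arrays; the fit with scan as a block and without M25 was added after seeing the data.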

Additional observations from a re-analysis of the deposited data

How the results depend on the processing

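Over 15 alternatives, of 220 refits of single members 158 kept direction and side of the threshold, 28 lost the call with the same sign (all of Itgb2, Itgam, Itga5 or Itgb1), 2 gained it (Itga1 and Itgal without C4) and 32 turned sign, 1 of which, Itgam with normexp, lost its call too (29 lost in all); the causes were not tested. Members that passed as higher numbered 4 as reported and 2 with quantile normalization, 2 with normexp, 1 without a filter, 2 with scan as a block, 0 with scan as a block and without M25, and 0 to 6 leaving out 1 array. In all these fits 0 fell, with 2 lower at an unadjusted p below 0.05 as reported in limma. Passing probes numbered 3460, 2293 with normexp, 1826 without a filter, 77 with scan as a block and without M25, and 509 (without M25) to 7433 (without C4) leaving out 1 array. Of passing probes 46.7% were higher, 67.6% with median scaling, where the median of all probes moved from -0.026 to 0.16 (0.094 with quantile normalization, -0.35 with normexp). The members' median, 0.051, was 0.24 with median scaling, 0.35 with quantile normalization, 0.31 in the deposited table and -0.067 to 0.41 leaving out 1 array, over the members each fit tested.

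Signs turned as follows. With median scaling Itga4 was 0.16, Itga7 0.13 and Itgb6 0.069. With quantile normalization Itga4 was 0.12 and Itgb6 0.049, and the deposited values gave 0.12 and 0.051. With normexp Itga7 was 0.053, Itgad -0.70, Itgam -0.53 and Lamb1 -0.65. With scan as a block Itga1 was -0.16, Itga4 0.043, Itga7 0.064, Itgal -0.018, Itgb6 0.095 and Lamb1 -0.28. Leaving out M25 as well, Itga1 was -0.13, Itga4 0.048, Itga7 0.073, Itgb6 0.014 and Lamb1 -0.32. Leaving out 1 array gave Itga4 -0.093 to 0.045, Itga7 -0.12 to 0.016, Itgad -0.17 to 0.41, Itgb6 -0.50 to 0.33 and Lamb1 -0.60 to 0.54. Signals near the detection limits of C5 and C6 (Itgam, Itgad, Lamb1) limit what those arrays can show.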
